A study of Mus musculus with 6 samples.

Results

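The 10 genes described here are markers of leukocytes, most of them of macrophages and other myeloid cells. They are Ptprc, Adgre1, Aif1, Cd68, Cd14, Lyz2, Tyrobp, Fcer1g, Fcgr3 and Laptm5. They were chosen by name, as a reading of leukocyte RNA in endothelial cells that had been sorted as CD45-negative, and every array probe whose RefSeq accession belonged to one of them was taken. This gave 14 of the 56605 non-control probes, and 10 of the 22911 genes that the probes could be named for. Ptprc, Adgre1, Cd68 and Cd14 had 2 probes each, and the other 6 genes had 1.

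Cells were taken from the small intestine of female mice. Vascular endothelial cells (VECs), which line blood vessels, were sorted as negative for CD45 and CD90 and positive for CD31. Lymphatic endothelial cells (LECs), which line lymphatic vessels, were sorted as CD45-negative cells positive for both CD31 and CD90. Neither the sample labels nor the methods of the arrays give the strain, age or treatment of the array mice, and no genetic change was stated for either population. Other small-intestine sorts of the study used naïve B6D2F1 mice. At most 10000 cells per sample were sorted into lysis reagent, and the RNA was amplified, labeled with Cy3 and hybridized to 1-color Agilent arrays. There were 3 arrays per population, numbered VEC 2, 3 and 4 and LEC 6, 7 and 8. In their free-text description the LEC samples are called VECs, but by title and source they are LECs, and title and source decided the population here. Nothing states that samples of a population came from separate mice, so the p-values measure the spread between these samples, which may be technical.

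CD45, the product of Ptprc, is a phosphatase on the surface of nearly all leukocytes, and an antibody against it is the usual means of removing these cells before endothelial cells are studied. Macrophages are abundant in the lamina propria of the intestine, where they lie close to blood and lymphatic vessels, and they carry F4/80 (Adgre1) on the surface and IBA1 (Aif1) in the cytoplasm. Many of their receptors signal through small adaptors with an immunoreceptor tyrosine-based activation motif (ITAM), of which DAP12 (Tyrobp) and the common Fc receptor gamma chain (Fcer1g) are the main ones in myeloid cells. A CD45 gate acts on protein at the cell surface, whereas the arrays measure RNA.

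Of the arrays as a whole, between 30930 and 35510 probes per array were well above background by the scanner software's own flag. The lowest intensity that carried this flag was between 12.1 and 25.1 units and was highest on LEC 7. No spot was saturated. The genes of the sort gates followed the labels. Thy1, which encodes CD90, was measured at intensities of 57.8, 29.0 and 48.5 on VEC 2, 3 and 4, and at 75411, 58802 and 67555 on LEC 6, 7 and 8. Pecam1, which encodes CD31, and the endothelial cadherin gene Cdh5 were well above background on all 6 arrays.

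All 10 genes rose over the background of at least some arrays, and the populations did not overlap for any of them. In 8 genes the 3 LEC arrays lay above the 3 VEC arrays, and in 2 genes, Cd68 and Cd14, they lay below. In RNA from sorted populations, fewer cells of a type and less RNA per cell cannot be told apart. Among all 22911 named genes, 28.8% had every LEC array above every VEC array and 25.3% had every LEC array below. Levels are given below as the intensity of each array, and differences as the mean LEC minus the mean VEC value on the log2 scale after each array was scaled to its own 75th percentile. Of the 10 genes, 9 could be tested with limma across all probes, and 7 of these were higher and 2 lower in LECs at an adjusted p under 0.05. The corresponding background was high, since of the named genes tested 34.9% differed toward LECs and 32.0% toward VECs. Over all tested probes, named or not, the shares were 31.2% and 32.8%. A gene entered the test when every array of 1 population read it well above background, and Adgre1, Lyz2, Fcgr3 and Laptm5 entered through the LECs alone. Every array read 5 of the 10 genes well above background, as it did 58.1% of all named genes, while 25.0% of all named genes were so read by no array. These 5 were divided into 3 that were higher in LECs, Aif1, Tyrobp and Fcer1g, and 2 that were lower, Cd68 and Cd14. Of all named genes at that level, 35.7% differed toward LECs and 30.6% toward VECs.

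**Figure D1:**
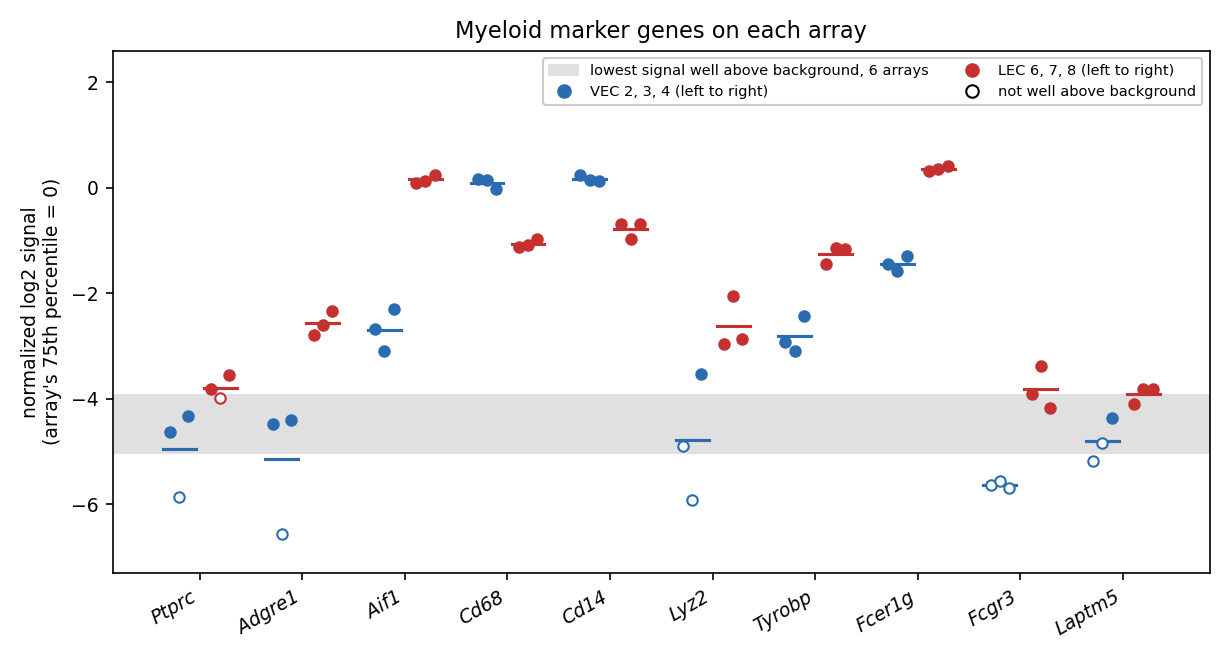
Scaled log2 signal (0 is the 75th percentile of the array) of the 10 genes; each point is 1 array, horizontal bars are means of 3 arrays, open points were not well above background, and the shaded band spans the lowest scaled signals that were, from -5.03 to -3.92. The LEC points (red) lie above the VEC points (blue) for 8 genes and below them for Cd68 and Cd14, and open VEC points are seen for Ptprc, Adgre1, Lyz2, Fcgr3 and Laptm5.

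The gene of the gate antigen itself was measured first. Ptprc had an intensity of 14.6 on VEC 2, 5.68 on VEC 3 and 18.6 on VEC 4, and of 30.5 on LEC 6, 23.9 on LEC 7 and 37.5 on LEC 8. In each population 2 of 3 arrays stood well above background, the exceptions being VEC 3 and LEC 7. All LEC arrays were brighter than all VEC arrays, with a log2 difference of 1.15 between measured means of -3.79 ± 0.22 in LECs and -4.95 ± 0.82 in VECs (SD, n = 3). Because neither population was above background throughout, the gene was not part of the limma test, and an exact permutation test over the arrays gave p = 0.1, two-sided, the smallest value that 3 against 3 arrays allow. With each dim VEC array raised to its detection limit the ratio was 1.64-fold. This is not a lower bound, because LEC 7 was not well above background either. With normexp background correction the log2 difference was 0.06. That setting adds an offset of 50 units to every signal, which shrinks the differences of signals as dim as these. The second Ptprc probe lay between 3.01 and 8.21 units, under the detection limit of every array. Laptm5, which encodes a lysosomal membrane protein of blood cells, was similarly dim. Its intensities were 9.97, 11.5 and 18.2 on VEC 2, 3 and 4 and 25.1, 27.1 and 31.1 on LEC 6, 7 and 8. All LEC arrays but only VEC 4 read it well above background, with a log2 difference of 0.89 between the measured means (SE 0.22, limma adjusted p = 0.012). With the VEC arrays raised to their detection limit where they fell under it, LECs were at least 1.61-fold higher. Both genes therefore sat close to the detection limit in both populations, and in both the LEC arrays were the brighter ones.

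Of the macrophage genes, Aif1 was bright in LECs and Adgre1 was dim. Aif1 encodes IBA1, an actin-bundling protein that is used as a macrophage and microglia stain. It was measured at 56.7, 38.9 and 76.4 units on VEC 2, 3 and 4 and at 460.1, 419 and 524 units on LEC 6, 7 and 8. The brightest VEC array thus stayed far below the dimmest LEC array. The log2 difference was 2.85 (SE 0.20, limma adjusted p = 6.6e-05), or 7.20-fold, and the LEC level was close to the 75th percentile of the array, at 0.16 ± 0.080 on the scaled log2 axis. Adgre1, the adhesion receptor recognized by the F4/80 antibody, was measured at 16.2, 3.53 and 17.7 units on VEC 2, 3 and 4 and at 62.5, 63.0 and 87.7 units on LEC 6, 7 and 8. VEC 3 was not above background. The log2 difference of the measured means was 2.58 (SE 0.59, limma adjusted p = 0.0096), and it was 1.88 without that array. With VEC 3 raised to its detection limit LECs were at least 3.76-fold higher, and with normexp background correction the log2 difference was 0.65. The second Adgre1 probe was not well above background anywhere, at 3.03 to 6.23 units. The difference of this gene was therefore read by 1 of its 2 probes.

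Cd68 and Cd14 went the other way. Cd68 encodes a heavily glycosylated protein of lysosomes and endosomes. Its brighter probe was measured at 408, 370 and 367 units on VEC 2, 3 and 4 and at 199, 180 and 224 units on LEC 6, 7 and 8, a log2 difference of -1.16 (SE 0.083, limma adjusted p = 7.3e-05), or 2.23-fold higher in VECs. The dimmer Cd68 probe gave -1.17 (SE 0.12). Cd14 encodes the co-receptor that passes bacterial lipopolysaccharide to TLR4. Its brighter probe was measured at 429, 369 and 409 units on the VEC arrays and at 268, 194 and 275 units on the LEC arrays, a log2 difference of -0.96 (SE 0.10, limma adjusted p = 3.7e-04), or 1.94-fold higher in VECs. The dimmer Cd14 probe gave -1.06 (SE 0.060). For both genes the 2 probes read the same direction and nearly the same size, and all 6 arrays were well above background.

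The partners of CD14 were set beside it. Of 13 genes listed as receptor partners of CD14 and their adaptors, 11 could be tested. Among these, 7 were lower and 1 was higher in LECs, where 32.0% and 34.9% of all named genes tested were. The list holds Tlr1, Tlr2 and Tlr6 beside Tlr4, and Tlr2 and Tlr6 were among the 7 lower genes. Tlr4, the signaling receptor for lipopolysaccharide, was measured at 163, 140 and 206 units on VEC 2, 3 and 4 and at 18.5, 20.1 and 17.96 units on LEC 6, 7 and 8, of which 1 was well above background. It entered the test through the VECs alone and was at least 9.44-fold higher there (limma adjusted p = 8.3e-06). The adaptor gene Myd88 was lower by a log2 difference of -1.79 (SE 0.092). The gene that was higher was Lbp, which encodes the lipopolysaccharide-binding protein, with a log2 difference of 4.95 (SE 0.15). Ly96, which encodes the MD-2 subunit, did not pass, at -0.13 (limma adjusted p = 0.16). Tlr4, Myd88, Lbp and Ly96 were picked for their roles after the values were seen.

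Lyz2 encodes lysozyme M, an enzyme of macrophage and granulocyte granules that digests bacterial cell walls. It was measured at 12.1, 5.45 and 32.4 units on VEC 2, 3 and 4 and at 55.6, 91.5 and 60.5 units on LEC 6, 7 and 8. Only VEC 4 was well above background among the VEC arrays, and all LEC arrays were. With VEC 3 raised to its detection limit, LECs were at least 3.25-fold higher. VEC 2 was not flagged but lay level with the limit of its array, 12.1 units, so its own signal entered this ratio. The log2 difference of the measured means was 2.16 (SE 0.62, limma adjusted p = 0.022), the largest adjusted p of the 9 genes tested, and it no longer passed without VEC 2 (limma adjusted p = 0.062) or without LEC 7 (limma adjusted p = 0.072). Lyz1, the near-identical neighbor that Paneth cells of the intestinal crypt secrete, was brighter and ordered the arrays of each population the same way. Its intensities were 91.6, 67.7 and 711 on VEC 2, 3 and 4 and 327, 1435 and 389 on LEC 6, 7 and 8, with a log2 difference of 1.56 (SE 1.0, limma adjusted p = 0.23). How much of the Lyz2 signal came from Lyz1 RNA was not tested.

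The ITAM adaptors were among the best measured of the 10 genes. Fcer1g, the signaling chain of several Fc receptors, was measured at 132, 111 and 153 units on VEC 2, 3 and 4 and at 541, 487 and 585 units on LEC 6, 7 and 8. This was a log2 difference of 1.81 (SE 0.089, limma adjusted p = 1.5e-05), or 3.50-fold, and the smallest adjusted p of the set. Tyrobp, which encodes DAP12, was measured at 47.7, 38.8 and 69.8 units on the VEC arrays and at 157, 174 and 197 units on the LEC arrays, a log2 difference of 1.57 (SE 0.19, limma adjusted p = 7.3e-04), or 2.97-fold. Every array read both adaptors well above background, and a wide gap separated the populations. Fcgr3 encodes a low-affinity IgG receptor that signals through the Fcer1g chain. It was measured at 7.23, 7.06 and 7.27 units on VEC 2, 3 and 4, none of them well above background, and at 28.8, 36.5 and 24.3 units on LEC 6, 7 and 8, all well above it. LECs thus exceeded VECs by at least 1.89-fold, with a limma adjusted p of 4.7e-04. This bound and the others set the mean of the brighter population against, on each dim array, the higher of the gene's own signal and the lowest signal well above background. Fcgr3 is 1 of several Fc gamma receptor genes with similar sequence, and whether its probe also reads the others was not tested.

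**Figure D2:**
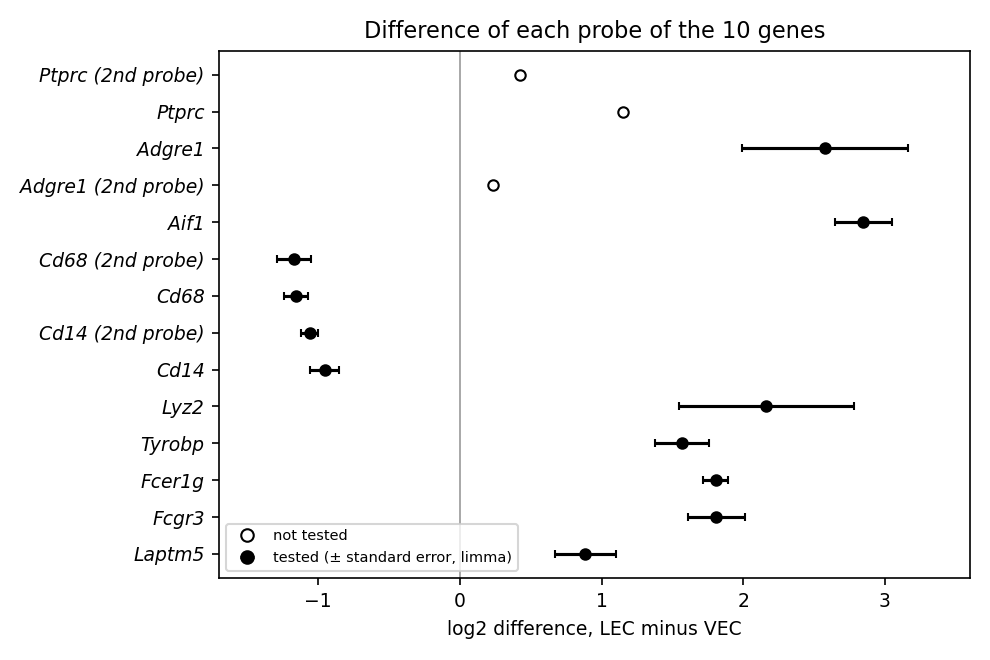
Log2 difference between LECs and VECs for each of the 14 probes, LEC minus VEC; points are means of 3 arrays against 3, bars are the standard error from limma for tested probes, and open points mark probes that were not tested. Aif1 lies farthest right at 2.85, both probes of Cd68 and of Cd14 lie left of 0, and the untested probes of Ptprc and Adgre1 lie right of 0.

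The receptors and kinases around these adaptors were counted in the same fit. Of 31 ITAM signaling genes, 22 could be tested, with 7 toward LECs, 8 toward VECs and 7 short of the threshold, shares close to the 34.9% and 32.0% of all named genes tested. The largest differences toward LECs were those of Sirpb1a, an activating receptor that pairs with DAP12, which was at least 4.36-fold higher, and of the kinase gene Src, at least 2.50-fold higher. Neither was well above background on a VEC array. The largest toward VECs were those of Syk, the kinase that docks on phosphorylated ITAMs, and of Plcg2, a phospholipase below it. Syk was measured at 899, 794 and 1038 units on VEC 2, 3 and 4 and at 63.7, 57.6 and 56.9 units on LEC 6, 7 and 8, a log2 difference of -4.16 (SE 0.095, limma adjusted p = 9.4e-07), and Plcg2 gave -2.84 (SE 0.077). The adaptors and the kinase that binds them therefore differed between the populations in opposite directions. Fcgr4, another receptor that uses the Fcer1g chain, exceeded its VEC level by at least 2.14-fold in LECs (limma adjusted p = 0.0085), a gene that 1 VEC array read well above background and that entered the test through the LECs, and no array read Fcgr1 well above background.

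Other macrophage and monocyte genes were counted next. Of 24 genes listed beside the 10, 23 had a probe and 15 could be tested, with 9 toward LECs, 3 toward VECs and 3 short of the threshold, against 34.9% and 32.0% of all named genes tested. Of the 9, C1qa and Cx3cr1 entered the test through the LECs alone. The count toward LECs was 7 when all 6 arrays had to be above background, 5 with the slide row as a block and 2 on the arrays of slide row 1. The median log2 difference of the tested genes was 1.53, beside 0.017 over all named genes tested. Ms4a7, a membrane protein of resident macrophages, was measured at 36.8, 21.5 and 46.0 units on VEC 2, 3 and 4 and at 164, 153 and 289 units on LEC 6, 7 and 8, a log2 difference of 2.32 (SE 0.31, limma adjusted p = 0.0010). All LEC arrays of this gene lay above all VEC arrays. The complement genes C1qa, C1qb and C1qc, made in quantity by tissue macrophages, gave 1.99, 1.07 and 2.09, and the chemokine receptor gene Cx3cr1 gave 1.82. These last 4 were named after their values were seen. The genes that were lower were Mertk, a receptor for the uptake of dying cells, at -2.43 (SE 0.096), Clec4a2 at -0.43 (SE 0.11) and Itgam at -0.22. Itgam was very bright in both populations, at 25418 to 30509 units, and whether its probe also reads other RNA was not tested.

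Of the 23 listed macrophage and monocyte genes with a probe, 6 were well above background on no array, as were 25.0% of all named genes. The 6 were Spi1, which encodes the myeloid transcription factor PU.1, and Fcgr1, Cd163, Cybb, Ccr2 and Trem2. Csf1r, the receptor for the growth factor that macrophages require, was measured at 919, 863 and 784 units on VEC 2, 3 and 4 and at 914, 902 and 935 units on LEC 6, 7 and 8. Its log2 difference was -0.12 (SE 0.11, limma adjusted p = 0.35). Summed relative to the 75th percentile of each array, the listed macrophage and monocyte genes were dominated by Itgam, which made up 75.2% to 93.1% of the sum on an array. The sums with Itgam ranged from 80.6 to 88.2 over the VEC arrays and from 81.5 to 88.8 over the LEC arrays, and those of the other genes from 5.90 to 9.13 and from 17.2 to 22.1. A sum is weighted toward its brightest genes also without Itgam, so this gap does not show a rise of the listed genes as a set. For the 10 genes themselves the sums were 2.89 to 3.13 in VECs and 4.24 to 4.64 in LECs.

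**Figure D3:**
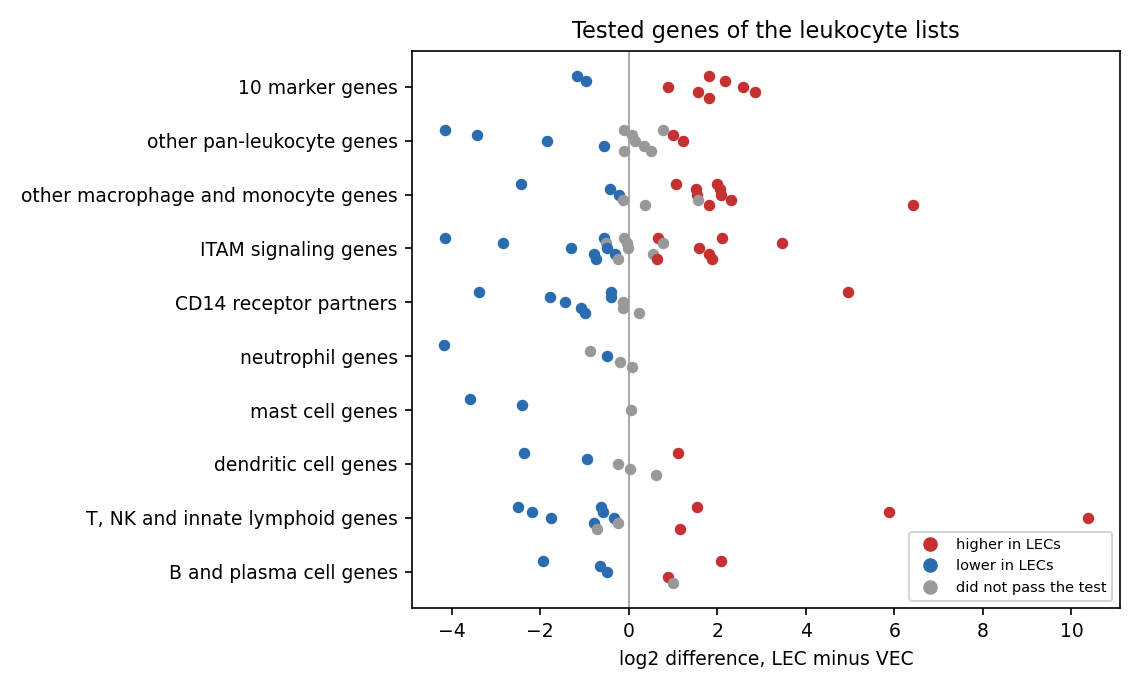
Log2 differences, LEC minus VEC, of the tested genes in 10 lists; each point is 1 gene, in red if higher in LECs and in blue if lower at a limma adjusted p under 0.05, and in gray if it did not pass. The top row (the 10 marker genes) and the macrophage and monocyte row lie mostly right of 0, the pan-leukocyte and ITAM rows reach -4.16 on the left, and the point farthest right is Thy1 at 10.37.

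Genes that are shared by all leukocytes differed in both directions. Of 20 pan-leukocyte genes listed beside Ptprc and Laptm5, 19 had a probe and 13 could be tested. Of these 13, 2 differed toward LECs, 4 toward VECs and 7 fell short of the threshold. Among all named genes tested, 34.9% differed toward LECs and 32.0% toward VECs. The median log2 difference of the tested genes was 0.082. Those that were higher were Cd52, a small surface glycoprotein, at 1.23 (SE 0.15, limma adjusted p = 7.5e-04), and Coro1a, an actin regulator, at 0.99 (SE 0.18, limma adjusted p = 0.0042). Cd52 was measured at 63.2, 49.0 and 78.5 units on the VEC arrays and at 163, 178 and 172 units on the LEC arrays. Those that were lower were led by Lcp1, an actin-bundling plastin, at -4.16 (SE 0.17) and Hcls1, a cortactin relative, at -3.42 (SE 0.092), and included Selplg and Cd37. Lcp1 and Hcls1 were bright in VECs, at 1046 to 1117 and at 1653 to 1715 units, so the summed level of this list was 9.75 to 10.4 in VECs and 2.84 to 3.42 in LECs. Cd53, Dock2 and Ptpn22 were not well above background on any array. Without VEC 4, the count of genes of this list that were higher in LECs was 5 in place of 2.

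The markers of the other cells that a dissociated intestine could hold were counted in the same way. These lists are short, and the shares over all named genes tested, 34.9% higher and 32.0% lower, apply to each. Of 9 fibroblast genes, 6 could be tested and 4 were higher and 0 lower, with a summed level of 1.18 to 1.91 in VECs and 3.11 to 4.01 in LECs. Of 7 epithelial genes tested, 2 were higher and 2 were lower, and the summed level was 4.20 to 6.81 in VECs and 7.20 to 8.48 in LECs. Of 4 erythroid genes tested, 3 were lower and 0 were higher, with a summed level of 14.4 to 35.5 in VECs and 0.499 to 2.13 in LECs. Of 3 mast cell genes tested, 2 were lower and 0 were higher, and of 5 neutrophil genes, 2 were lower and 0 were higher, while S100a9, Ms4a2 and the B cell gene Ms4a1 were under the detection limit of every array. Other genes of the same lists were bright, among them the neutrophil genes Csf3r, at 59817 to 75729 units, and Elane, at 484 to 743 units, and the mast cell genes Tpsb2, at 404 to 626 units, and Hdc, at 406 to 2259 units. For dendritic cells, 1 of 6 tested genes was higher and 2 were lower. For B and plasma cells, 2 of 6 were higher and 3 were lower. For T, natural killer and innate lymphoid cells, 4 of 13 were higher and 7 were lower, with Thy1 of the sort gate among the higher ones, and Cd3g and Cd8a not well above background anywhere. Of 2 platelet genes tested, 1 was higher and 0 were lower, and of 7 smooth muscle genes, 2 were lower and 0 were higher. The part of these cells in the levels of the 10 genes was not tested.

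Within the populations, the 10 genes tended to be high on the same arrays. Among the VEC arrays, VEC 4 was the highest for 7 of the 10 genes and VEC 3 the lowest for 6. The order of arrays within a population was not counted over all named genes, so it cannot be called a trait of these 10. The gap from VEC 3 to VEC 4 was 2.40 on the log2 scale for Lyz2, 2.15 for Adgre1, 1.54 for Ptprc, 0.80 for Aif1 and 0.68 for Tyrobp. It was 0.48 for Laptm5 and 0.29 for Fcer1g, but -0.03 for Cd14, -0.13 for Fcgr3 and -0.19 for Cd68. VEC 3 was not well above background for Lyz2, Adgre1, Ptprc, Laptm5 and Fcgr3, so the sizes of their gaps are not measured folds. VEC 4 was not the highest VEC array for Cd68 and Cd14, the genes that were higher in VECs. The same held for Fcgr3, which was not above background on any VEC array. For Laptm5 VEC 4 was the highest, but VEC 2 and not VEC 3 was the lowest. The other macrophage and monocyte genes were ordered alike, with VEC 4 highest for 13 and VEC 3 lowest for 11 of 17 genes that were well above background somewhere. VEC 4 was also the highest VEC array for 6 of 9 epithelial and 6 of 9 fibroblast genes, and the lowest for 5 of 5 erythroid genes and 9 of 13 genes of T, natural killer and innate lymphoid cells.

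**Figure D4:**
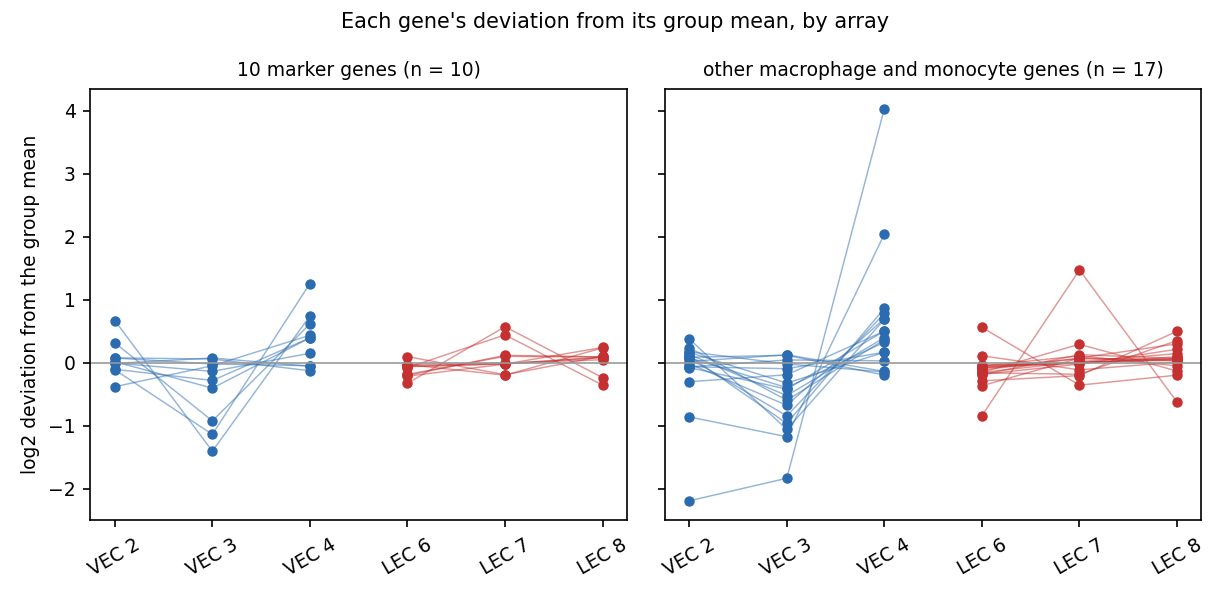
Log2 deviation of each gene from the mean of its population on each array, for the 10 genes (left) and for the 17 other macrophage and monocyte genes that were well above background on some array (right); each point is 1 gene on 1 array, and lines join the points of a gene. In the left panel VEC 4 lies mostly above 0 and VEC 3 mostly below, with median deviations of 0.39 and -0.21, and the LEC arrays spread less.

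For most of the 10 genes the LEC arrays lay closer together. LEC 8 was the highest for 6 of the 10 genes and LEC 6 the lowest for 7, and the SD was larger in VECs than in LECs for 8 genes, Cd14 and Fcgr3 being the exceptions. The SDs were not compared over all named genes. Of these 8 genes all but Cd68 were dimmer in VECs, and Ptprc, Adgre1, Lyz2 and Laptm5 had VEC arrays that were not well above background. All arrays shared a slide and a scan day, but LEC 6 lay in the slide row of the 3 VEC arrays and LEC 7 and 8 in the other row. Against the VEC mean, LEC 6 alone gave log2 differences of 2.36 for Adgre1, 2.78 for Aif1, 1.84 for Lyz2, 1.36 for Tyrobp, 1.77 for Fcer1g, 1.73 for Fcgr3, 1.12 for Ptprc and 0.70 for Laptm5. The mean of LEC 7 and 8 gave 2.69, 2.88, 2.33, 1.67, 1.82, 1.85, 1.17 and 0.98 in the same order. For Cd68 the values were -1.22 and -1.13, and for Cd14 -0.86 and -1.002. Each gene kept its direction within the shared row. With the slide row as a block, 4 of the 7 higher genes passed, and Adgre1 (limma adjusted p = 0.085), Lyz2 (limma adjusted p = 0.16) and Laptm5 (limma adjusted p = 0.12) did not.

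PU.1 drives much of the gene program of macrophages and monocytes, so the promoters of the 10 genes were searched for the letters GAGGAAG, a core to which that factor binds, on both strands (CTTCCTC on the other). RefSeq promoter windows of GRCm38.p6, from 250 bases before to 50 after a gene start, were at hand for 7 of the 10 genes. The letters were found for 2 of these 7, Fcgr3 and Laptm5, and in 15.4% of all 27025 genes with a window. The stretches that hold them lie just before the gene start, at chr1:171059404-171059433 on the minus strand for Fcgr3 and chr4:130913265-130913294 on the plus strand for Laptm5, and are shown 5′ to 3′ with the letters in capitals.
Fcgr3: ggttaagcaagagagtccatttcCTTCCTC
Laptm5: ggcagcctgtggCTTCCTCttttttgttct
The match is a description of the sequence and does not show that a factor binds there. The 2 genes that hold it were both dim in these arrays, with intensities of at most 36.5 units.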

How the data were processed

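Endothelial cells of mouse small intestine were measured on 6 arrays. The authors deposited spot intensity values from Agilent Feature Extraction 12.0.3.1, with the background subtracted by that program. Deposited beside them were log2 values per probe, which differed from the log2 intensity by a fixed amount on each array (tolerance 0.01, over 99.9% of probes) and served as an alternative. Gene Spring GX and ANOVA are named in the methods, without settings.

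The processed intensity was put on the log2 scale after outlier spots (97 to 122 per array) had been set missing. Repeated spots were averaged, and each array was scaled by subtracting its own 75th percentile. Probes well above background on all 3 arrays of a population were tested with lmFit and eBayes of limma 3.58.1 (R 4.3.3; no trend, two-sided) and adjusted by Benjamini-Hochberg, with a threshold of 0.05. The fit was tested on simulated data. RefSeq accessions of GRCm38.p6 named 32994 of 56605 probes. Where a gene had several tested probes, the brightest on average stood for it. The precision is limited by 3 arrays per population.

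The 10 genes and the gene lists were chosen with earlier results of these data known. Named were all 10 genes, the 2 largest differences per direction among genes past the threshold of the pan-leukocyte, macrophage and ITAM lists, and defining genes of other lists. One item that this rule names is left out because it is withheld for evaluation. Protein sequences were not used here. Alternatives were other background corrections, scalings, filters, a floor, outlier spots kept, a variance trend, ANOVA, the log2 table, probe averaging, slide row and each array left out. The normexp alternative added an offset of 50 units. It used median signals, since the mean signal was not among the columns used here.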

Additional observations from a re-analysis of the deposited data

How the results depend on the processing

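None of the differences changed direction under the 23 alternatives. Aif1, Cd68, Cd14, Tyrobp and Fcer1g passed under every one of them, with log2 differences of 1.94 to 3.08, -1.22 to -0.93, -1.01 to -0.73, 0.91 to 1.80 and 1.32 to 2.03. The dim genes depended on the setting. With normexp background correction Fcgr3 (0.28, limma adjusted p = 0.0503) and Laptm5 (0.11, limma adjusted p = 0.26) did not pass. The differences of Adgre1 and Lyz2 were then 0.65 and 0.52 and that of Ptprc 0.06. The offset of 50 units in this setting shrinks the differences of dim signals, so these values do not measure background correction alone. Lyz2 also missed the threshold with no filter on dim probes (limma adjusted p = 0.053) and with ANOVA (adjusted p = 0.070). Of the myeloid genes, 3 were higher in LECs when only probes above background on all 6 arrays were kept, 4 with the slide row as a block and 4 on the arrays of slide row 1, against 7. The block gave 1 pan-leukocyte gene higher, against 2, and 5 macrophage genes higher and 1 lower, against 9 and 3. Slide row 1 alone, where LEC 6 is assumed to vary like the VEC arrays, gave 2 macrophage genes higher and 1 lower, and 3 ITAM genes higher, against 7. The filter on all 6 arrays also gave 3 ITAM genes higher. Without scaling between arrays, 12922 probes were higher and 6916 lower in LECs, against 10537 and 11066, and 1 macrophage gene was lower; the median difference of the named genes tested was then 0.24 in place of 0.017.

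Leaving out 1 array at a time gave 6 to 8 myeloid genes higher and 2 lower, 2 to 5 pan-leukocyte genes higher, 9 to 10 macrophage genes higher and 2 to 3 lower, 6 to 8 ITAM genes higher and 7 to 9 lower, and 9295 to 10431 probes higher and 9591 to 10981 lower. The 8 myeloid genes were counted without VEC 3, where Ptprc could be tested (0.69, limma adjusted p = 0.021). No paired analysis was possible because the labels number the VEC samples 2, 3 and 4 and the LEC samples 6, 7 and 8, so that no number is shared. Signal over background limits Ptprc, Adgre1, Lyz2, Fcgr3 and Laptm5.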

Other observations

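The genes whose pattern over the 6 arrays was most like a mean profile of the myeloid genes were looked up. The measure was Pearson's r with the mean profile of the 5 myeloid genes that every array read well above background, each centered on its own mean. Of these 5, Aif1, Tyrobp and Fcer1g were higher in LECs and Cd68 and Cd14 lower, so the profile follows the former and the latter run against it. Smn1 (r = 0.999), Rnpc3, Arhgap32, Hacd1 and Mtmr6 stood first, and 123 of 13203 named genes had an r over 0.99. The 6 points share 1 slide and fall into 2 populations, so r mainly follows the difference between them.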
